A study of Mus musculus with 3 samples.

Results

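PAM is a super-enhancer RNA (seRNA), a long non-coding RNA made from a super-enhancer on chromosome 4, and ChIRP-seq maps the chromatin that comes down with it when biotinylated antisense probes pull on the RNA. Described here are H19 and 9 other imprinted genes (Igf2, Igf2r, Meg3, Dlk1, Cdkn1c, Peg3, Grb10, Gnas and Ndn) in the PAM ChIRP-seq of activated satellite cells (ASCs), the cultured stem cells of skeletal muscle. These 10 genes, of 37310 in the GENCODE M1 annotation of mm9, were chosen by their imprinting and with the high scores of H19 in these same lists already known. A region belonged to a gene when it overlapped the gene's span by at least 1 bp. By this rule the 10 genes held 4 regions of the odd probe pool, out of 2112, and 3 of the even probe pool, out of 345.

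Both libraries came from satellite cells sorted from hindlimb muscle of Tg:Pax7-nGFP mice, whose satellite cells carry a nuclear GFP reporter driven by Pax7, and then grown in culture. The same strain, cells and protocol are given for both. Cells were fixed for 10 min in 1% glutaraldehyde, and 100 pmol of probes was left to hybridize for 4 h at 37 °C. By the labels and methods, the libraries were distinguished by their probe pool. Each pool was 1 library, so no value has a replicate error and no test was made. The age and number of the mice were not given in the sources used here, and the input was not used here. The score given to a region by the authors is a whole number, from 4 to 81 with a median of 6 in the odd list and from 4 to 68 with a median of 5 in the even list. Its meaning is not stated and the read depth is unknown, so scores were read only by their place within a list. Of 7 genes that mark satellite cells and myoblasts, Des and Itga7 held regions of both pools, Vcam1 of the odd pool, and Pax7, Myf5, Myod1 and Cdh15 held 0. Of all annotated genes, 4.37% held an odd region, 0.681% an even region and 0.482% both. A region is not a measure of expression, so this does not check the cell type.

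Imprinted genes are expressed from only the maternal or only the paternal copy, because the germ line leaves a methylation mark on a control region near them. H19, a spliced non-coding RNA made from the maternal chromosome, and Igf2, a growth factor made from the paternal chromosome, are neighbours that share such a control region and a set of enhancers. Both are abundant in embryonic and regenerating muscle, and H19 is also the precursor of the miR-675 microRNAs.

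The probes decide what the pulldown can recover directly, so their sequences are shown first. Each is 20 nt long and lies antisense to the spliced annotated PAM transcript (Gm12603, 618 nt, 3 exons). The sources used here number the probes but do not list which pool held which. Capitals mark the longest exact stretch that each probe shares, on either strand, with any of the 4 regions in H19. Where stretches tie in length, only 1 is marked, as for probe 1, which shares 8 nt with each of the 4 regions.
Probe 1: gccagaaAGAATGGAtgact
Probe 2: gcattttcaGTGGGATcaca
Probe 3: acctgCCATCTGctatcaaa
Probe 4: tctTCACAAaccctcatgat
Probe 5: acaagtacTTCAGCTccatg
Probe 6: gTTCTGatatgtaagctcct
The longest of these stretches was 8 nt, with probe 1. Over the 7 regions in the imprinted genes the longest stretch shared with any probe was 7 or 8 nt, against a median of 7 nt over all odd regions and 8 nt over all even regions, where it reached 13 nt in each list. The 7 regions shared at most 10 nt with the annotated spliced PAM transcript, and the median of each list was 9 nt. The regions in H19 and Gnas were therefore as close to the probes and to the annotated PAM transcript in sequence as a typical region of the lists. Sequence outside the lists was not compared, so whether such stretches are longer than elsewhere in the genome was not tested. The transcript that the study cloned from a myoblast line was not used here.

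H19 carried regions of both pools at 2 places, and their sequences are the ones on which the description of this gene turns. Both are printed 5′ to 3′ on the minus strand of mm9, the strand of H19, as the whole 254 bp of the odd region, with the stretch that an even region also covered in capitals. The first lies in exon 1, at chr7:149763071-149763324, and its capitals are the 161 bp from 149763164 to 149763324.
H19 exon 1: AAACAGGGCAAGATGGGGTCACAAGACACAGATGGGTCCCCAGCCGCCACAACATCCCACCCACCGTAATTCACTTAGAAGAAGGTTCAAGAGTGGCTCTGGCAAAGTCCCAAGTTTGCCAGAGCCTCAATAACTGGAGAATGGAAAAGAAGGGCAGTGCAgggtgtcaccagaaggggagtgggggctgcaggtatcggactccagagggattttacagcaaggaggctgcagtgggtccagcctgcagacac
The second lies in exon 5, the last exon, at chr7:149761797-149762050, and its capitals are the 205 bp from 149761797 to 149762001. Its first 31 bases are the end of intron 4, with the cag of the splice acceptor just before the exon begins.
H19 exon 5: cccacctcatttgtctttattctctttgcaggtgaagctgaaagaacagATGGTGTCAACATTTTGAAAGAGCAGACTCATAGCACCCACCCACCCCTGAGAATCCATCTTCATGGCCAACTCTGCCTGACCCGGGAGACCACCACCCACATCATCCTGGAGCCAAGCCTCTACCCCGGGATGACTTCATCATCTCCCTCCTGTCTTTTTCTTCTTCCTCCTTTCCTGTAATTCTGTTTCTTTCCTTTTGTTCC
Every 31-mer of the 4 H19 regions occurs 1 time in mm9, so the H19 regions do not lie in repeated sequence. Of all regions, 83.5% of the odd list and 80.6% of the even list had a median 31-mer found fewer than 2 times. The GC content of the H19 regions ran from 48.8% to 55.1%, near the medians of 49.6% and 48.0% of the odd and even lists.

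H19 (ENSMUSG00000000031.9) spans chr7:149761434-149764048 (mm9, minus strand), a length of 2615 bp with 5 exons in its full-length transcript H19-001, which is 2286 nt when spliced. In the odd pool, the exon 5 region had a score of 68, place 3 of 2112, and the exon 1 region had a score of 60, place 8 and tied with 1 other region. In the even pool, the exon 5 region had a score of 26, place 6 of 345, and the exon 1 region had a score of 19, place 10. The exon 5 place thus ranked above the exon 1 place in both pools, and all 4 regions were among the highest 10 of their list. The high place of H19 in the lists is part of how these genes were chosen and is given as a description.

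**Figure D1:**
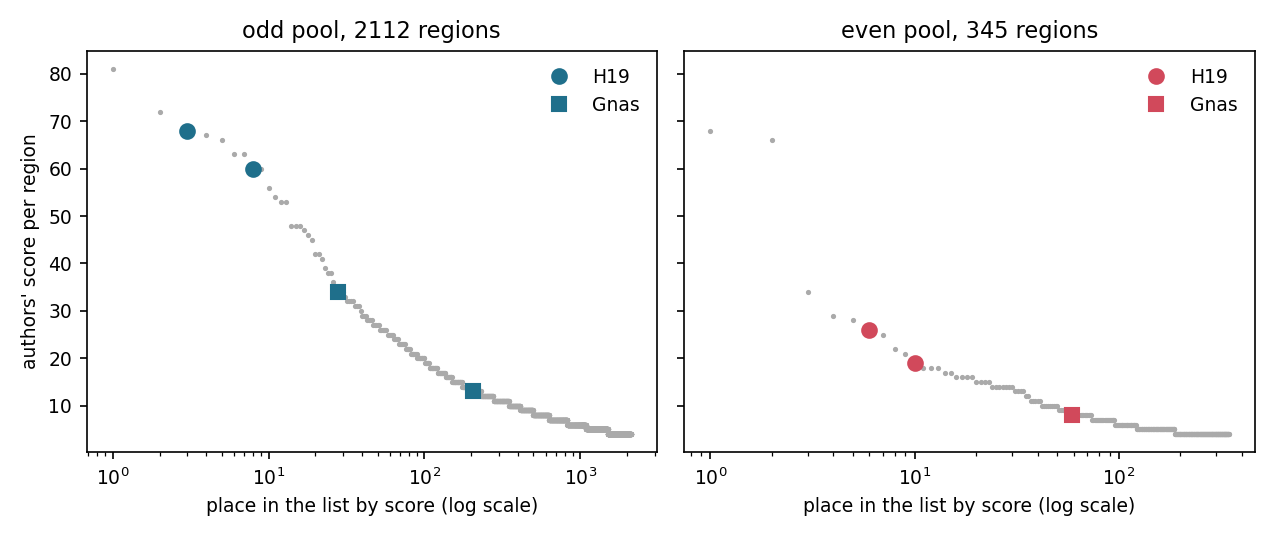
Authors' score of every region against its place in the list (log scale) for the odd pool (left, 2112 regions) and the even pool (right, 345 regions), with grey points for all regions, circles for H19 and squares for Gnas. The H19 regions sit at scores of 68 and 60 in the odd pool and 26 and 19 in the even pool, and the Gnas regions at 34 and 13 in the odd pool and 8 in the even pool.

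The pools met at the same places on H19. In exon 1, the midpoints of the odd and even regions were 90 bp apart, and in exon 5 they were 46 bp apart. The median was 47 bp over the 147 loci where a region of each pool overlapped (shared loci). Only overlapping pairs enter this median, and their midpoints were at most 246 bp apart. Over the whole lists, 6.96% of odd regions and 42.6% of even regions overlapped a region of the other pool. On the spliced transcript, the exon 1 regions covered bases 725 to 978 (odd) and 638 to 885 (even), and the exon 5 regions covered bases 1701 to 1923 (odd) and 1719 to 1966 (even). The regions covered parts of exons 1 and 5 and 0 bases of exons 2, 3 and 4, which are short, with 135, 122 and 128 bp. Within each pool the H19 regions took in 20.1% (odd) and 20.9% (even) of the 2372 bp of merged H19 exons, and together 25.6%. All 254 bp of the odd exon 1 region and all 248 bp of each even region were exonic, and the odd exon 5 region had 223 bp in the exon and 31 bp in the intron. Among the 37310 annotated genes, 126 held at least 1 shared locus and 11 held 2 or more. H19, with 2, was the only one of those 11 annotated as a long non-coding gene. Long non-coding genes were 3845 of the 37310 and 9 of the 126, so 1 of 11 is near their share. Actb also held 2 shared loci.

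**Figure D2:**
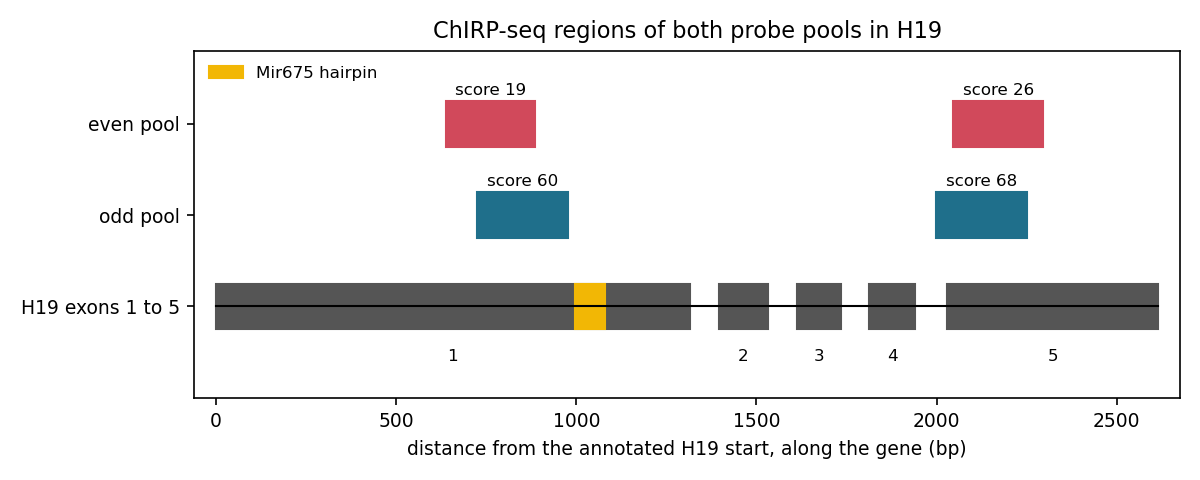
Map of H19 by distance from its annotated start (bp), with exons 1 to 5 of H19-001 as dark boxes, the Mir675 hairpin in yellow, and the regions of the odd (blue) and even (red) pools with their scores. The pools overlap by 161 bp in exon 1 and by 205 bp in exon 5, and the hairpin lies 18 bp beyond the odd region.

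Mir675, the hairpin inside exon 1 from which Dicer releases miR-675, is annotated from 149762969 to 149763052. It lay outside all 4 regions, 18 bp downstream of the odd exon 1 region and 111 bp from the even one. The width of the regions is fixed, so these gaps do not show where a signal ends. The mature products of Mir675 (RefSeq, GRCm38.p6) are printed with the seed, bases 2 to 8, in capitals, to show a part of H19 RNA outside the regions. They match H19 exactly from base 1011 (5p) and 1045 (3p) of the gene.
mmu-miR-675-5p: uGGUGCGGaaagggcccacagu
mmu-miR-675-3p: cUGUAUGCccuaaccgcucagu
H19 is also known to bind let-7. A perfect match to the let-7 seed, CTACCTC on the H19 strand, was not found in the annotated gene, and on either strand it stood in 2.84% of the odd regions and 2.61% of the even regions. This says only that these letters are absent from the gene.

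All 4 regions lay within H19. Regions have a fixed width, 254 bp in the odd list and 248 bp in the even list, so their edges do not show where a signal ends. Other regions in the surroundings were therefore counted. Igf2, the gene with which H19 shares its control region, has its nearer edge, the 3′ end, 72.6 kb from H19. It held 0 regions of either pool, and the interval between the genes held 0 regions as well. The lists have only 2112 odd and 345 even regions over the whole genome, so most intervals this short hold 0. No boundary between H19 and Igf2 is read from these counts. Of the 17 annotated genes within 200 kb of H19 and Igf2, these 2 included, 3 held an odd region (H19, Tnnt3 and Ctsd) and 2 an even region (H19 and Ctsd). The shares over all annotated genes were 4.37% and 0.681%. H19 was chosen with its regions known and the genes are few, so nothing is read from these counts. Tnnt3, the fast-muscle troponin T, had 2 odd regions with the lowest score of the list, 4, the nearer one 63.3 kb from H19. Ctsd, the lysosomal protease cathepsin D, had odd regions with scores of 16, 8 and 6 and an even region with a score of 7, 190 to 199 kb away. The insulin gene Ins2, Igf2as, Mir483 and the muscle-expressed Nctc1 held 0 regions.

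Gnas, the other imprinted gene with regions, encodes the alpha subunit of the stimulatory G protein, and its alternative first exons are imprinted in different ways. The gene (ENSMUSG00000027523.12) spans chr2:174109821-174172245 (mm9, plus strand) and has 22 annotated transcripts. The odd pool had a region from 174171742 to 174171995 with a score of 34, place 28 and tied with 2 others, and another from 174171085 to 174171338 with a score of 13, place 204. A score of 8, place 59 of 345, belonged to the only even region, which ran from 174171877 to 174172124. All 3 began at least 61264 bp from the annotated start of this 62425 bp gene, at its 3′ end. They lay in exons that 11 or 12 of the 22 transcripts share, so they do not tell these transcripts apart.

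The odd region with the higher score and the even region overlapped by 119 bp in the last exon (exon 14 of Gnas-201), with midpoints 132 bp apart. Of the odd region, 144 bp were coding sequence and 109 bp exon beyond it, and of the even region 10 bp were coding and 238 bp beyond it. The odd region with a score of 13 had 0 bp in common with any even region. It took in exon 12 whole, 131 bp of coding sequence, with 123 bp of the introns on both sides. A region of fixed width must reach past an exon this short. The region is printed on the plus strand of mm9, chr2:174171085-174171338, with the exon in capitals.
Gnas exon 12: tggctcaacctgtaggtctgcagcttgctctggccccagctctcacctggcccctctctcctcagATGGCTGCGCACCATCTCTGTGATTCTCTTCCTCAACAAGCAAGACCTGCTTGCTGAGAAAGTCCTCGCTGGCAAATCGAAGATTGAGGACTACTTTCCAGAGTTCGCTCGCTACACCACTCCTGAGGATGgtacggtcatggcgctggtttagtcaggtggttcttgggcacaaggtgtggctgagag
Gnas had a smaller share of its exons covered than H19, 3.43% in the odd pool and 2.22% in the even pool, out of 11186 bp of merged exons. The GC content of its regions ran from 42.3% to 55.5%, and the median 31-mer of each occurs 1 time in mm9.

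**Figure D3:**
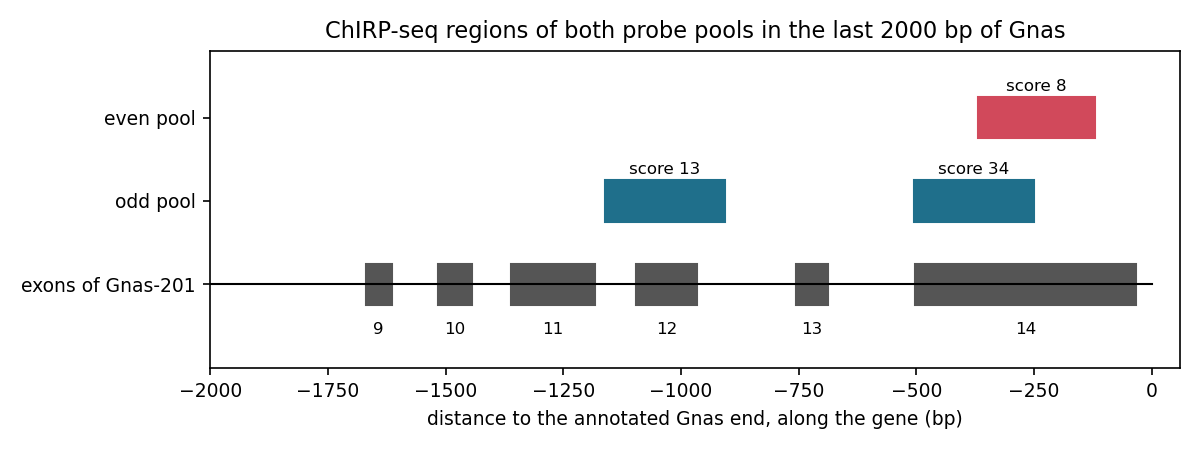
The last 2000 bp of Gnas by distance to its annotated end (bp), with exons 9 to 14 of Gnas-201 as dark boxes and the regions of the odd (blue) and even (red) pools with their scores. The odd region with a score of 34 and the even region with a score of 8 overlap in exon 14, and the odd region with a score of 13 spans exon 12.

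All 7 regions in the imprinted genes touched an exon of their gene, and 6 of the 7 were the odd and even regions of 3 shared loci and so not independent. Among all regions that lay in an annotated gene, 90.3% of the 1875 odd regions and 77.8% of the 261 even regions touched an exon. In the imprinted genes, 1 of 4 odd regions and 3 of 3 even regions lay fully within exons, against 63.6% and 59.0% of all regions in genes. With so few regions, nothing is read from these shares. The even pool added 0 imprinted genes to those of the odd pool.

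The remaining 8 imprinted genes had 0 regions in each pool. They were the growth factor Igf2, its scavenging receptor Igf2r, the non-coding RNA Meg3, the transmembrane protein Dlk1 of the same cluster as Meg3, the cell cycle inhibitor Cdkn1c, the zinc finger protein Peg3, the receptor adaptor Grb10 and the MAGE family protein Ndn. Thus 2 of 10 members held a region of each pool, where 4.37% of all annotated genes held an odd region, 0.681% an even region and 0.482% a region of both. Among the 17399 genes with merged exons at least as long as those of Ndn, the shortest member at 1652 bp, the shares were 7.59%, 1.13% and 0.776%. With 10 genes picked in view of H19, the count is not evidence about imprinted genes. Meg3, also a non-coding RNA, has 0 regions, and H19 has 4 regions at 2 shared loci. The merged exons are 18089 bp for Meg3, over 10 transcripts, and 2372 bp for H19, over 5. As single spliced transcripts, Meg3-003 has 1896 nt and H19-001 has 2286 nt, so the order of length depends on the measure. The part of gene length in the pattern was not tested. Whether these 8 genes are transcribed in the ASCs used was not measured here.

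Outside the genes, the distance to the nearest region varied widely. Distances over all annotated genes were not computed for comparison, and the even list is the shorter, with 345 regions against 2112. The nearest odd region was 73.3 kb from Igf2, and 136 kb from Peg3, 174 kb from Igf2r and 390 kb from Cdkn1c. It lay 1053 kb from Meg3 and 1161 kb from Dlk1, which had the same nearest region, in Dync1h1. For Ndn and Grb10 it was 2953 and 3497 kb away. The nearest even region was also 73.3 kb from Igf2 and lay in H19, but for the other 7 genes without regions it was from 881 to 15789 kb away. For H19 itself, the nearest region beyond the gene was 63.3 kb away in the odd pool and 199 kb away in the even pool, and for Gnas 506 and 504 kb. The rule's limit of 1 bp therefore left no close case on either side.

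**Figure D4:**
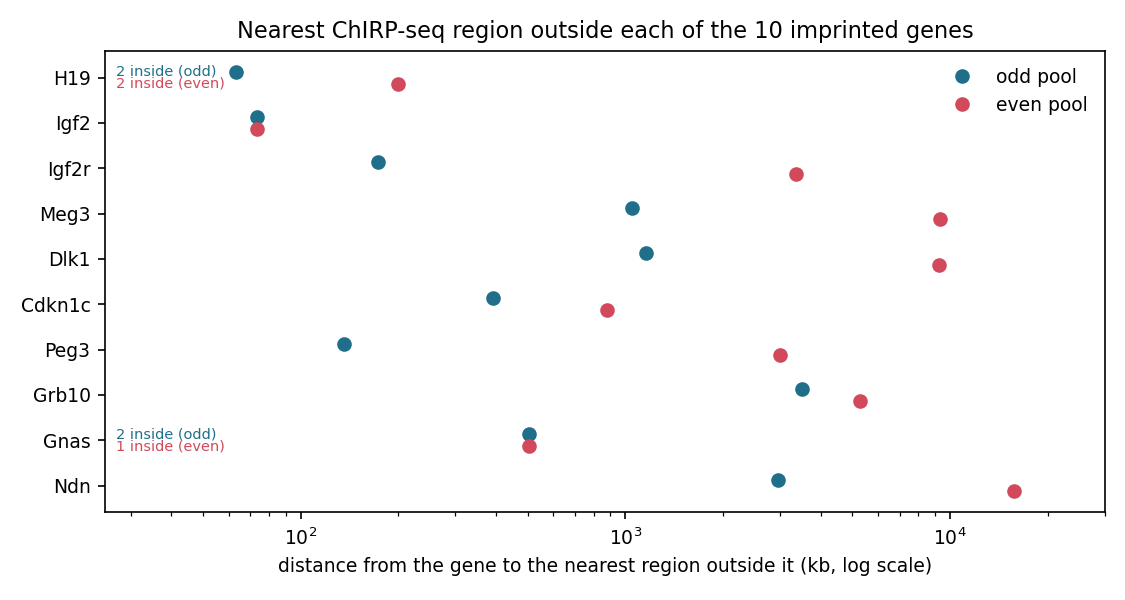
Distance (kb, log scale) from each of the 10 imprinted genes to the nearest region outside it, for the odd (blue) and even (red) pools, with the number of regions inside a gene written at the left edge where it is above 0. H19 and Gnas hold regions of both pools, and the other genes have their nearest odd region between 73.3 and 3497 kb away.

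Other imprinted genes, from a list of 69 of which 65 were in the annotation, held regions of the odd pool in 4 cases (6.15%) and of the even pool in 0. The shares over all annotated genes were 4.37% and 0.681%, and over the longer genes 7.59% and 1.13%, so these counts were near the background. Dcn, the matrix proteoglycan decorin, had 4 odd regions with scores of 12, 9, 5 and 4. Cd81, a tetraspanin in the imprinted cluster that holds Cdkn1c, had 1 odd region with a score of 14. Gatm, which makes a creatine precursor, had 1 with a score of 5, and Commd1, a regulator of copper and NF-kB, had 1 with a score of 4. The highest of these scores, 14, was at place 175 of the odd list, below all H19 regions and below the last-exon region of Gnas.

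Genes of the insulin-like growth factor pathway, on which Igf2, Igf2r and Grb10 act, held odd regions in 5 of 18 cases (27.8%) and even regions in 0, where the shares over the longer genes were 7.59% and 1.13%. The list is short and was chosen with earlier results known, so no enrichment is read from the odd count, and 0 even regions in 18 genes is near the background. They were the binding proteins Igfbp2, with scores of 12, 6 and 5, Igfbp7 with 7, Igfbp4 and Igfbp5 with 5 each, and the receptor substrate Irs1 with 4. The ligand Igf1 and the receptors Igf1r and Insr held 0, as did the mRNA-binding proteins Igf2bp1, Igf2bp2 and Igf2bp3.

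Among other long non-coding RNAs, 4 of the 17 in the annotation held an odd region (23.5%) and 0 an even region, beside the same 7.59% and 1.13% of longer genes, and nothing is read from counts this small. Malat1 had 1 with a score of 13, Neat1 had 2 with scores of 11 and 10, and 1 region with a score of 13 lay at the overlapping antisense pair Xist and Tsix, which cannot be told apart without strand. That region had 178 bp in exons of Xist and 0 bp in exons of Tsix. Xist and Tsix were thus both counted among the 4 genes through the same region. Regions in the genes of these RNAs were in the odd list only, at place 204 or lower. The difference between pools cannot be told apart from a difference in depth. Over all 3845 long non-coding genes in the annotation, 76 held an odd region, 16 an even region and 12 both. Over all 37310 annotated genes the counts were 1629, 254 and 180 (4.37%, 0.681% and 0.482%). The shares of the long non-coding genes were thus lower than those of all genes. Exon length was not matched in this comparison, and its part was not tested. Of the 12 long non-coding genes with both, H19 had the highest score in each pool, which was known when it was chosen. Some of the 12, such as Gm16091 and Gm16724, had 0 bp of their own exons covered in either pool.

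The genes most like H19 were sought among the 180 with a region of each pool, over 4 values, namely the percentile of the gene's highest score and the percentage of its exons covered, in each pool. The 5 nearest by Euclidean distance were Tmsb4x (6.90), Ptms (8.91), Actb (9.94), Spp1 (10.8) and Bgn (11.9). All 5 are protein-coding. They encode an actin-sequestering peptide, parathymosin, beta-actin, osteopontin and biglycan. Their highest scores were 56, 21, 66, 48 and 41 in the odd pool and 14, 13, 18, 16 and 15 in the even pool, all below the 68 and 26 of H19. By the highest score, H19 was at place 3 of the 180 genes in each pool, and Gnas at place 21 in the odd pool and 42 in the even pool. By the share of exons covered, H19 was at place 56 in the odd pool and 27 in the even pool, and Gnas at places 143 and 138.

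**Figure D5:**
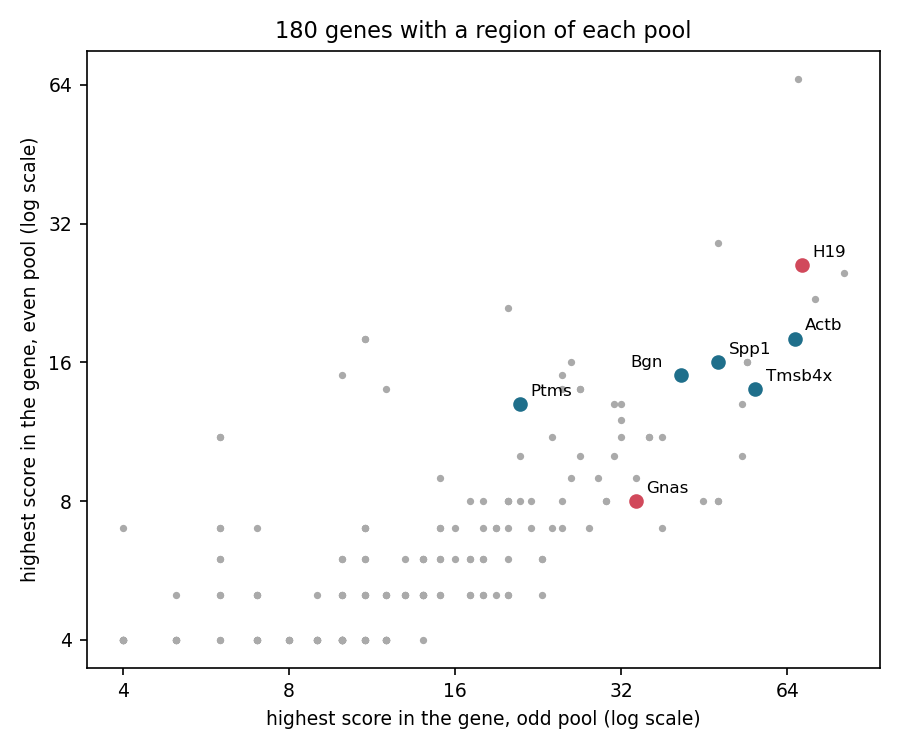
Highest score in a gene in the odd pool against that in the even pool (log scales) for the 180 genes with a region of each pool, with H19 and Gnas in red and the 5 genes most like H19 in blue. H19 is at 68 and 26, Gnas at 34 and 8, and the medians of all 180 genes are 14 and 6.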

How the data were processed

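ChIRP-seq of PAM in ASCs was analysed for 1 odd-pool and 1 even-pool library. The submitters' processing notes name Bowtie2, MACS2 and mm9. The authors deposited 1 list per pool, whose regions have a fixed width (254 bp odd, 248 bp even) and a score. The study itself reports a set of PAM-bound regions that is smaller than either list. Whether the H19 and Gnas regions belong to that set was not checked here. Versions, thresholds and the use of the input are not given in the sources used here.

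The first coordinate was read as 0-based and coordinates are printed 1-based. Regions were overlapped with GENCODE M1 genes on NCBIM37, which is mm9. Exons were numbered by H19-001 and Gnas-201, and merged exons join all transcripts of a gene. Sequences were read from NCBIM37, probes from the study's oligo list and miRNAs from RefSeq. Copies of 31-mers were counted on both strands. Percentiles and places were taken within a list. The overlap step was tested on simulated data.

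Named were the 10 members, every listed gene with a region, the 5 genes most like H19 and neighbours within 200 kb. The members and lists were chosen with earlier results of these data known. Of the listed genes, 4 imprinted and 8 long non-coding genes were not found by symbol. Alternatives were 50% of a region inside the gene, exons only, 1000 bp added on each side, and scores above the lowest or the median of a list. The tools were samtools 1.23.1 and Python 3.11.15 with matplotlib 3.10.9, SciPy 1.17.1, numba 0.67.0, pandas 2.3.3 and NumPy 2.4.6.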

Additional observations from a re-analysis of the deposited data

How the results depend on the processing

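The 9 counts and shares on the imprinted genes (members with a region in the odd, the even and both pools, regions in members per pool, their share on exons, and regions and shared loci in H19) were recomputed under 5 alternatives, which gave 44 values. All 44 equalled the reported ones, whether 50% of a region had to lie inside the gene, an exon had to be touched, genes were extended by 1000 bp, or only scores above the lowest or the median of a list were kept. Values given above fixed this outcome. All 7 regions lay inside their gene, touched an exon and scored 8 or more, above the medians of 6 and 5. The nearest region outside any of the 10 genes was 63.3 kb away, beyond the added 1000 bp. The agreement is therefore no measure of robustness. The share on exons was not recomputed under the exon rule, which fixes it. The alternatives use the same lists and do not bear on how the regions were called. No paired analysis was possible because there was only 1 library per pool. Depth is unknown, so the absence of a region can follow depth.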
